A study of Mus musculus with 9 samples.

Results

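The sodium pump genes described here are the beta subunits Atp1b1, Atp1b2 and Atp1b3 and the FXYD regulators Fxyd7, Fxyd6 and Fxyd1, 6 of the 23997 gene symbols listed for mouse retinal ganglion cells (RGCs) under raised intraocular pressure (IOP). They were selected by symbol with their FPKM (fragments scaled to transcript length and to library size) over the Control, Mild IOP and Moderate IOP groups in view. Their differences between groups are therefore given as a description, with standard errors, and where the number of members called is printed it stands only beside the share of all genes. All 6 passed the expression filter of a mean scaled FPKM of at least 0.5 over the 9 libraries.

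The sodium pump (Na+/K+-ATPase) moves sodium out of the cell and potassium in at the cost of ATP, and so restores the ion gradients that neurons run down with each action potential. Its alpha subunit carries out the catalysis, its beta subunit is a glycoprotein that the alpha subunit needs to fold and to reach the cell membrane, and a small FXYD protein can bind the pair and shift its affinity for sodium or potassium. RGCs are the output neurons of the retina, with long axons whose first stretch is unmyelinated, and ion pumping accounts for much of a neuron's use of energy.

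RGCs came from C57BL/6J mice of both sexes whose eyes received, in the anterior chamber, saline (Control) or polystyrene microbeads, and the bead-injected eyes were divided by their average rise in pressure into Mild IOP and Moderate IOP. The cells were taken 2 weeks after injection by a 4-step immunopanning with a final selection on Thy1.2. The mice were 6 weeks old at injection and 8 weeks old at collection. Per group, RNA was pooled and divided into 3 technical replicates, with fewer retinas in the Moderate IOP pool than in the others, so that n = 3 counts technical replicates, and every SD, standard error and p-value covers the spread between libraries of one pool and not between animals.

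The depth derived from the confidence intervals of the FPKM was 4640000 to 8350000 fragments per library, and 14182 to 14914 genes stood above 0. This depth is an estimate and not a count of reads, and the methods give 20000000 paired-end reads per sample. The most abundant gene took 1.87% to 3.59% of the FPKM in 7 libraries, 20.5% in Mild IOP replicate 2 and 9.14% in Moderate IOP replicate 3. The summed RGC markers (12 genes, none at 0 in any library) spanned 1790 to 1920 scaled FPKM in Control, 1320 to 1640 under Mild IOP and 2670 to 2880 under Moderate IOP, while the summed amacrine markers (8 genes) spanned 1370 to 1420, 1420 to 1610 and 975 to 1140. These sums rest on a few abundant genes and not every marker followed them. Sncg averaged 911, 641 and 1390 scaled FPKM in the 3 groups, while Nefl averaged 343, 374 and 537 and Pou4f2 9.51, 8.33 and 8.91, and among the amacrine markers Slc32a1, Tfap2a and Tfap2b had their highest mean under Moderate IOP. In such bulk samples, fewer cells of a type and less RNA per cell cannot be told apart.

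Promoter sequences were held in the RefSeq table (GRCm38.p6) for 4 of the 6 members, and 3 are shown, those of Atp1b1 and Fxyd6, whose Moderate IOP libraries all lay above the others, and of Atp1b3, a beta subunit whose groups overlapped. Each run holds the 250 bases before the annotated start, read 5′ to 3′ on the gene's strand, and capitals mark motif matches on either strand. The motifs searched were the GC box, spelled GGGCGG, the CCAAT box, spelled by its name, the TATA box in its form TATAAA, the E box in its form CACGTG, and the cAMP response element in its form TGACGTCA.
Atp1b1, chr1:164458356-164458605, minus strand: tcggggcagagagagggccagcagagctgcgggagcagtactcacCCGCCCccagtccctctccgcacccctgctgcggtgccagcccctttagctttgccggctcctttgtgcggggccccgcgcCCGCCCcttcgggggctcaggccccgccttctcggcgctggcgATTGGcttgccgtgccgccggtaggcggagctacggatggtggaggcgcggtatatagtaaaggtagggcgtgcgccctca
Fxyd6, chr9:45369935-45370184, plus strand: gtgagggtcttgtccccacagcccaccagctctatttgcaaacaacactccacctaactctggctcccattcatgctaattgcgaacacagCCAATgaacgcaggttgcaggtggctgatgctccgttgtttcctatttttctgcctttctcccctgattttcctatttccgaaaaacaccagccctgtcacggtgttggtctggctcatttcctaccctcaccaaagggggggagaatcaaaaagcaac
Atp1b3, chr9:96364432-96364681, minus strand: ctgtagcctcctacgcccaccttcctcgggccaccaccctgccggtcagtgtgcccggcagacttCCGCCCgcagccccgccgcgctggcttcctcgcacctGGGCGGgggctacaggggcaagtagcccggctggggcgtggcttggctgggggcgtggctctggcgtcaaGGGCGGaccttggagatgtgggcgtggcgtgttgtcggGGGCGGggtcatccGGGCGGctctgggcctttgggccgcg
Counted over these bases and the 50 after the start, the Atp1b1 promoter was 71.0% G or C with 31 CpG, 2 GC boxes and 2 CCAAT matches, and the Atp1b3 promoter was 76.0% G or C with 34 CpG and 6 GC boxes. The second annotated start of Atp1b3 was 74.7% G or C with 39 CpG and 1 E box. The Fxyd6 promoter was 54.3% G or C with 12 CpG and 1 CCAAT match, and the Fxyd1 promoter (chr7:31054854-31055103, minus strand) was 58.7% G or C with 6 CpG and 1 TATA box match after the start. The windows of Atp1b1 and Atp1b3 were thus richer in CpG than those of Fxyd6 and Fxyd1, with none at hand for Atp1b2 and Fxyd7. The Fxyd1 window lies inside the Fxyd1 locus (31051678 to 31055656), so it precedes an internal start. Over all 32851 promoters of the table the median was 52.7% G or C with 7 CpG, and the GC box was found in 35.7%, the CCAAT box in 37.4%, the TATA box in 13.6%, the E box in 7.15% and the cAMP response element in 1.79%. None of the windows of the 4 members held the last of these.

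Fxyd7 encodes a small regulator found mainly in brain. Its locus lies on chromosome 7 (31042515 to 31051454, mm10, minus strand), with a longest transcript of 693 nt. Its level was 70.9, 49.1 and 74.5 scaled FPKM in Control replicates 1 to 3, 30.8, 27.2 and 54.6 in Mild IOP, and 109, 129 and 119 in Moderate IOP. Every Moderate IOP library lay above every other library, whereas Mild IOP replicate 3 lay within the Control values. The group means were 64.8 ± 13.8 (Control), 37.5 ± 14.9 (Mild IOP) and 119 ± 9.85 (Moderate IOP; SD, n = 3). On the log2(scaled FPKM + 1) scale, Moderate IOP was 1.70 above Mild IOP, or 3.25-fold, and 0.88 above Control, or 1.85-fold, and Mild IOP lay 0.82 below Control (log2 difference −0.82, standard error 0.24 for each of the 3). Less the median of tested genes of like transcript length, an allowance described with the length bins, these became 1.10, 0.67 and −0.42. Fxyd7 stood lowest under Mild IOP and highest under Moderate IOP, with the largest differences between Moderate and Mild IOP of the 6 genes.

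Fxyd6 (phosphohippolin) is another regulator of neural tissue. It lies on chromosome 9 (45370185 to 45396159, plus strand) with a longest transcript of 1788 nt. Its libraries held 38.6, 40.0 and 32.7 scaled FPKM in Control, 42.4, 32.3 and 42.6 under Mild IOP, and 43.7, 47.6 and 50.9 under Moderate IOP. The Moderate IOP libraries were again all above the other 6, but by a smaller margin than for Fxyd7. Moderate IOP exceeded Mild IOP by 0.28 and Control by 0.35, and Mild IOP exceeded Control by 0.07, on the log2 scale (standard error 0.15).

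Fxyd1 (phospholemman) is best known from heart and skeletal muscle, where its phosphorylation relieves inhibition of the pump. It lies on chromosome 7 (31051678 to 31055656, minus strand) with a longest transcript of 620 nt. Its libraries held 4.46, 10.4 and 1.29 scaled FPKM in Control, 2.91, 5.44 and 13.1 under Mild IOP, and 6.53, 19.7 and 12.2 under Moderate IOP. All 3 groups overlapped. Behind each of these values stood 0.84 to 50.5 derived fragments (median 9.49), against 82.8 to 518 for Fxyd7 and 271 to 692 for Fxyd6, so that Fxyd1 was the least precise of the 6. Its log2 differences were 0.84 for Moderate against Mild IOP, 1.29 for Moderate IOP against Control and 0.44 for Mild IOP against Control (standard error 0.60), and leaving out one library at a time moved the first from 0.42 (without Mild IOP replicate 1) to 1.34 (without Mild IOP replicate 3), the second from 0.69 (without Control replicate 3) to 1.85 (without Control replicate 2), and the last from −0.15 (without Control replicate 3) to 1.00 (without Control replicate 2).

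**Figure D1:**
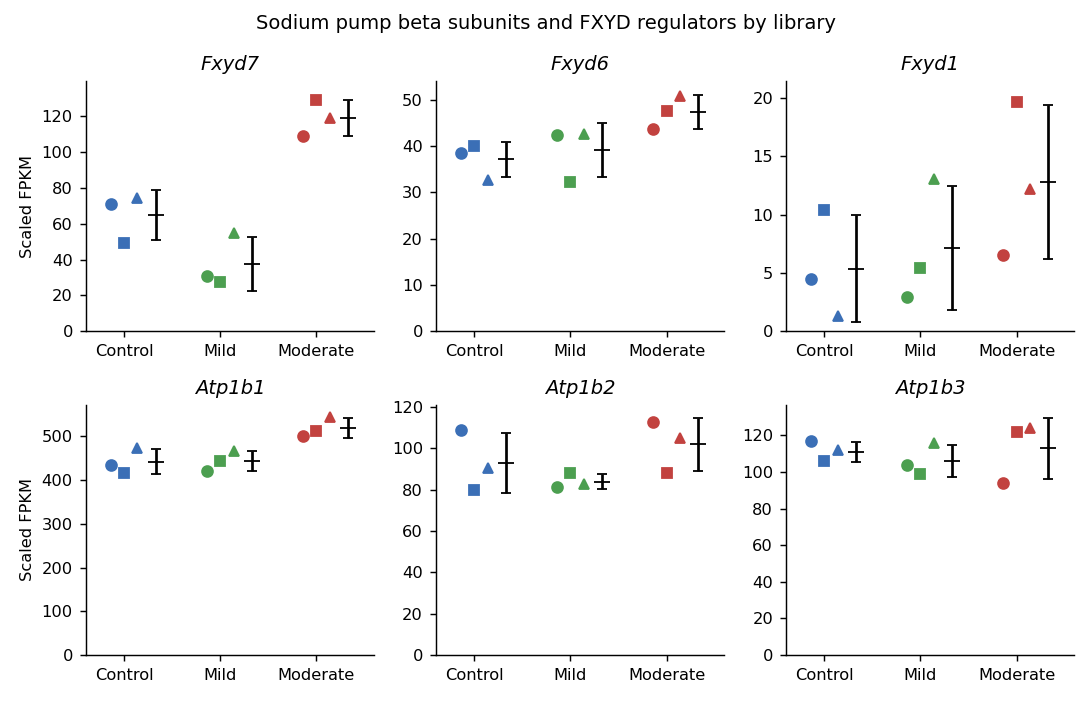
Scaled FPKM of the 6 genes on a linear axis by library, with circles, squares and triangles for replicates 1, 2 and 3 and the group mean ± SD (n = 3 technical replicates) beside them. Fxyd7 spread over 27.2 to 129 with all Moderate IOP libraries at 109 or more, while Atp1b2 and Atp1b3 overlapped between all groups.

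Among the beta subunits, Atp1b1 encodes the form that pairs with the catalytic subunits of most neurons. It lies on chromosome 1 (164437099 to 164458355, minus strand) with a longest transcript of 2580 nt. Its libraries held 434, 417 and 473 scaled FPKM in Control, 421, 444 and 467 under Mild IOP, and 501, 512 and 544 under Moderate IOP. The Control and Mild IOP libraries occupied the same range, and the Moderate IOP libraries lay above all of them. The log2 differences were 0.22 for Moderate against Mild IOP, 0.23 for Moderate IOP against Control and 0.01 for Mild IOP against Control (standard error 0.10). With the deposited FPKM left unscaled, the first of these was 0.14. The gene Nme7 overlaps Atp1b1 on the opposite strand and the kit does not mark strand, but its mean was 13.7 scaled FPKM against 468 for Atp1b1.

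Atp1b2 was first described as an adhesion molecule on glia and is also made by neurons. It lies on chromosome 11 (69599750 to 69605960, minus strand) with a longest transcript of 2842 nt. Its libraries held 109, 80.1 and 90.4 scaled FPKM in Control, 81.1, 88.0 and 82.7 under Mild IOP, and 113, 87.9 and 105 under Moderate IOP. The groups overlapped in every comparison, since Moderate IOP replicate 2 lay just under the highest Mild IOP library. The log2 differences were 0.27, 0.13 and −0.14 for Moderate against Mild IOP, Moderate IOP against Control and Mild IOP against Control (standard error 0.14).

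Atp1b3, a more widely made beta subunit, lies on chromosome 9 (96332675 to 96364299, minus strand) with a longest transcript of 1994 nt. Its libraries held 117, 106 and 112 scaled FPKM in Control, 104, 99.1 and 116 under Mild IOP, and 94.1, 122 and 124 under Moderate IOP. Its Moderate IOP libraries included both the lowest and the highest of the 9 values. The log2 differences were 0.08, 0.02 and −0.07 in the same order (standard error 0.13), and the first spanned 0.01 (without Moderate IOP replicate 3) to 0.21 (without Moderate IOP replicate 1).

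Across the 6 genes, the median log2 difference was 0.27 for Moderate against Mild IOP, 0.29 for Moderate IOP against Control and −0.03 for Mild IOP against Control, beside medians of −0.016, 0.004 and 0.006 over all 13043 genes tested. All 6 had a positive difference in both Moderate IOP comparisons, which share the Moderate IOP libraries, and 3 of 6 had one in Mild IOP against Control. The sign of Atp1b3 did not hold, since Moderate IOP against Control gave −0.02 without a scaling factor and −0.05 without Moderate IOP replicate 3, and Moderate against Mild IOP gave −0.03 less the median of its length bin. The Moderate IOP libraries lay wholly above those of Mild IOP, and wholly above those of Control, for Fxyd7, Fxyd6 and Atp1b1. Over all genes tested this held for 14.5% (1896 genes) against Mild IOP and for 9.95% (1298 genes) against Control. At a false discovery rate (FDR, limma with Benjamini-Hochberg adjustment over all genes) below 0.1, 1 of the 6, Fxyd7, was called between Moderate and Mild IOP, where 10.2% of all genes were called (1324 genes). Neither Fxyd7 nor any other member was called between Moderate IOP and Control, where 1.84% of genes were called (240), or between Mild IOP and Control, where 0.399% were called (52). The values that were called are those that chose the members, so these counts carry no weight of their own. The authors, with another test (Cuffdiff) and an added fold-change limit, listed Fxyd7 as lower under Mild IOP and higher under Moderate IOP than in Control. Their listing rests on the same libraries.

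**Figure D2:**
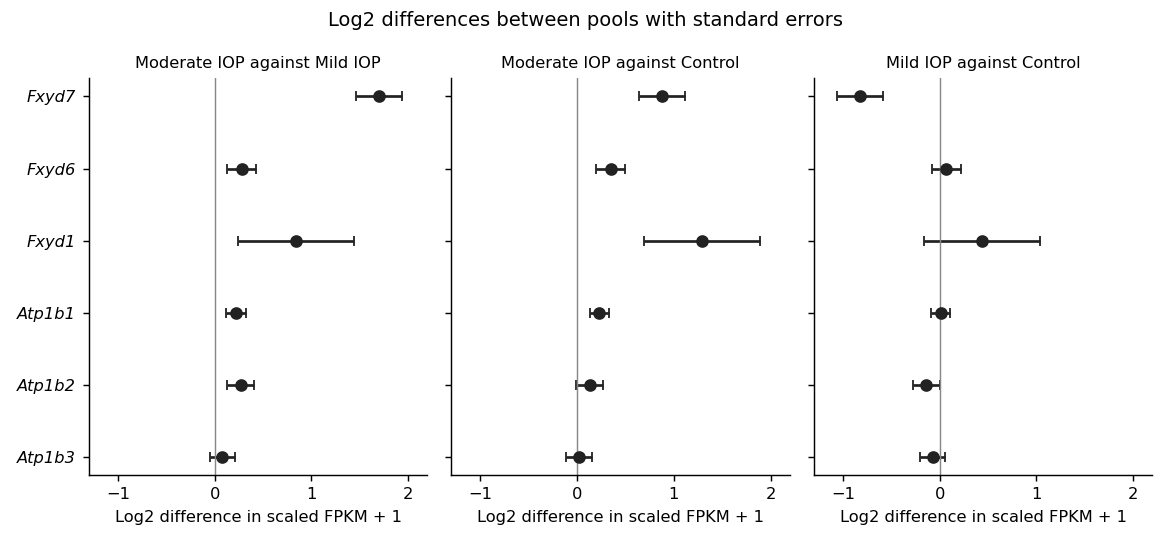
Log2 differences in scaled FPKM + 1 (points) with standard errors (bars) in the 3 comparisons between pools for the 6 members. Fxyd7 had the largest difference between Moderate and Mild IOP, at 1.70, and the 3 beta subunits stayed between −0.14 and 0.27 in all comparisons.

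Since FPKM is per length of transcript, the levels of the 6 messages could be set side by side. Averaged over the 9 libraries, Atp1b1 stood at 468 scaled FPKM, Atp1b3 at 110, Atp1b2 at 93.0, Fxyd7 at 73.7, Fxyd6 at 41.2 and Fxyd1 at 8.45. Atp1b1 was separated from the other 5 in every library, and Fxyd1 (1.29 to 19.7) lay below them. Between these the order was looser, because Atp1b3 (94.1 to 124) overlapped Atp1b2 (80.1 to 113), and the range of Fxyd7 (27.2 to 129) reached over those of Atp1b3, Atp1b2 and Fxyd6 (32.3 to 50.9). Atp1b3 was above Atp1b2 in every library except Moderate IOP replicate 1, and Fxyd7 was above Fxyd6 in every library except Mild IOP replicates 1 and 2.

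The spread over the 9 libraries differed among the genes. The highest library exceeded the lowest 1.30-fold for Atp1b1, 1.32-fold for Atp1b3, 1.41-fold for Atp1b2, 1.57-fold for Fxyd6, 4.74-fold for Fxyd7 and 15.3-fold for Fxyd1. The beta subunits and Fxyd6 were therefore steadier than Fxyd7, and for Fxyd1 the lowest library rested on 0.84 derived fragments.

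The make-up of the beta subunit messages varied little. Atp1b1 supplied 68.4 ± 2.26% of their summed FPKM in Control, 70.0 ± 0.45% under Mild IOP and 70.7 ± 0.293% under Moderate IOP (SD, n = 3), Atp1b2 supplied 14.4 ± 1.83%, 13.2 ± 0.77% and 13.9 ± 1.88%, and Atp1b3 supplied 17.3 ± 0.628%, 16.8 ± 0.92% and 15.4 ± 1.88%. Over the 9 libraries the share of Atp1b1 ranged from 65.8% to 70.9%. The 3 FXYD messages shifted more. Fxyd7 made up 60.1 ± 9.83% of their sum in Control, 43.9 ± 4.85% under Mild IOP and 66.5 ± 1.76% under Moderate IOP, and Fxyd6 made up 34.7 ± 5.09%, 48.0 ± 8.68% and 26.6 ± 2.02%. The ratio of Fxyd7 to Fxyd6 was 1.78 ± 0.527 in Control, 0.949 ± 0.293 under Mild IOP and 2.51 ± 0.19 under Moderate IOP. The lowest Moderate IOP library (2.33) was close to the highest Control library (2.28), and ratios of other gene pairs were not counted. These shares and ratios are a description, since the FPKM chose the members. The transcripts of Fxyd7 (693 nt) and Fxyd6 (1788 nt) also differ in length. Between Moderate and Mild IOP, genes of like length had median log2 differences of 0.60 and 0.11.

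**Figure D3:**
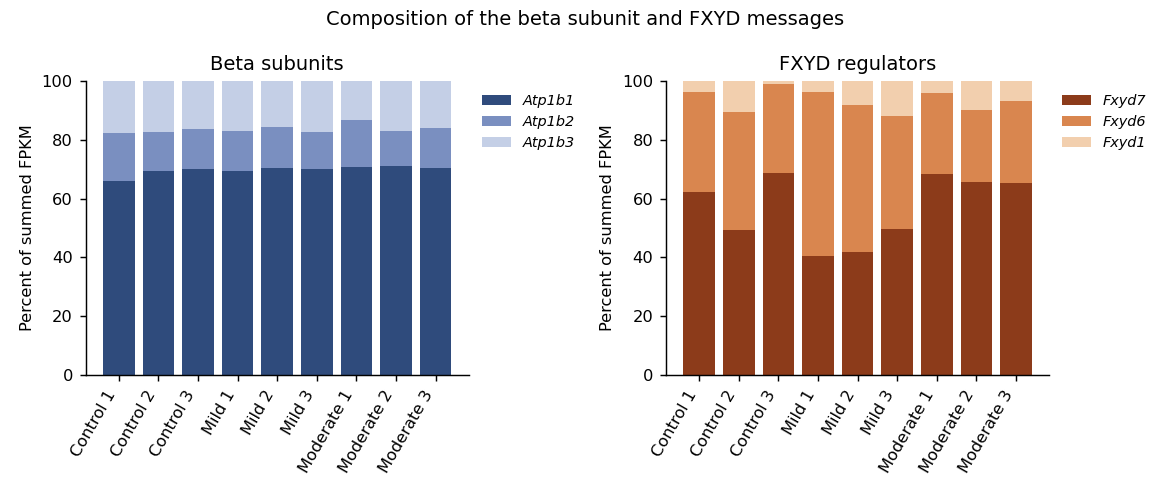
Share of each gene in the summed FPKM (percent) of the 3 beta subunits (left) and the 3 FXYD regulators (right), one stacked bar per library. Atp1b1 took 65.8% to 70.9% of the beta messages in all libraries, while the share of Fxyd7 ran from 40.4% in a Mild IOP library to 68.7% in a Control library.

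The other FXYD genes were scarce in these libraries. Fxyd5 (dysadherin, a regulator that also weakens cell adhesion) was listed at 0 in all Mild IOP libraries, at 0, 0.397 and 2.14 scaled FPKM in Control, and at 4.47, 2.96 and 1.22 in Moderate IOP. Its Moderate IOP values rested on 14.9, 18.5 and 3.8 derived fragments. Its mean of 1.24 passed the filter of 0.5 only through Moderate IOP (group means 0.845, 0 and 2.88), so its call is not independent of that filter. The test called it between Moderate and Mild IOP (limma FDR = 0.036) but not between Moderate IOP and Control (FDR = 0.26) or Mild IOP and Control (FDR = 0.65). With Mild IOP at 0, the log2 difference of 1.86 ran from 1.57 to 4.72 over the alternatives. The call was lost when Mild IOP replicate 2, Moderate IOP replicate 1 or Moderate IOP replicate 2 was left out, with the FDR between 0.021 and 0.11 over all alternatives. Fxyd2, the gamma subunit of the kidney pump, averaged 1.50, 3.05 and 5.14 scaled FPKM in Control, Mild IOP and Moderate IOP (FDR = 0.63, 0.23 and 0.61 for Moderate against Mild IOP, Moderate IOP against Control and Mild IOP against Control). Fxyd3 averaged 0.856 over all libraries, with an FDR of at least 0.81. Fxyd4 averaged 0.103, below the filter, and the muscle gene Atp1b4 was listed at 0 in every library.

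Of 41 genes that interact with the pump, belong to its family or use its sodium gradient, Fxyd5, Fxyd2 and Fxyd3 among them, 31 were tested. Between Moderate and Mild IOP 1 was higher and 3 were lower at an FDR below 0.1. That is 4 of 31 where 10.2% of all genes were called, a share near the background. The higher gene, Fxyd5, passed the filter only through Moderate IOP. The median log2 difference was −0.13 beside −0.016 over all genes, and 9 of the 31 had an unadjusted p below 0.05. The share of all genes at such a p was not counted, so this number cannot be read as an excess. Atp2a2, the calcium pump of the endoplasmic reticulum (SERCA2), stood at 64.2 ± 5.48 in Control, 70.4 ± 7.99 under Mild IOP and 45.4 ± 3.81 under Moderate IOP (log2 difference from Mild IOP −0.62, limma FDR = 0.025). Slc4a10, a sodium-driven bicarbonate transporter, stood at 14.8 ± 4.03, 17.5 ± 2.31 and 8.87 ± 0.17 (−0.90, limma FDR = 0.034), and Slc24a3, a sodium, calcium and potassium exchanger, at 121 ± 8.22, 124 ± 0.869 and 92.0 ± 12.5 (−0.43, limma FDR = 0.071). Without Mild IOP replicate 2 none of these 4 calls remained, and over the alternatives Atp2a2 was called in 16 of 17, Slc4a10 in 15 and Slc24a3 in 10.

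Between Moderate IOP and Control the 31 had a median of 0.02 and 12 had an unadjusted p below 0.05, again with no share over all genes counted. At an FDR below 0.1, where 1.84% of all genes were called, 1 of the 31 was lower and none was higher. This was Nkain3, a membrane protein that binds the beta1 subunit, at 5.22 ± 1.43 scaled FPKM in Control, 2.75 ± 0.641 under Mild IOP and 1.79 ± 0.713 under Moderate IOP (log2 difference −1.16, limma FDR = 0.094), and the call held in 3 of 16 alternatives (FDR 0.084 to 0.21). Between Mild IOP and Control, where 0.399% of all genes were called, limma called none of the 31, and 2 had an unadjusted p below 0.05.

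The Fxyd genes of chromosome 7 stand close together. The loci of Fxyd7 and Fxyd1 are 223 bases apart and those of Fxyd5 and Fxyd7 183 bases, all on the minus strand, while Fxyd3 lies 14878 bases from Fxyd1. These neighbours differed in level by far, with means over all libraries of 73.7 scaled FPKM for Fxyd7, 8.45 for Fxyd1, 1.24 for Fxyd5 and 0.856 for Fxyd3. On chromosome 9, Fxyd2 lies 3549 bases from Fxyd6, at a mean of 3.23 beside 41.2.

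**Figure D4:**
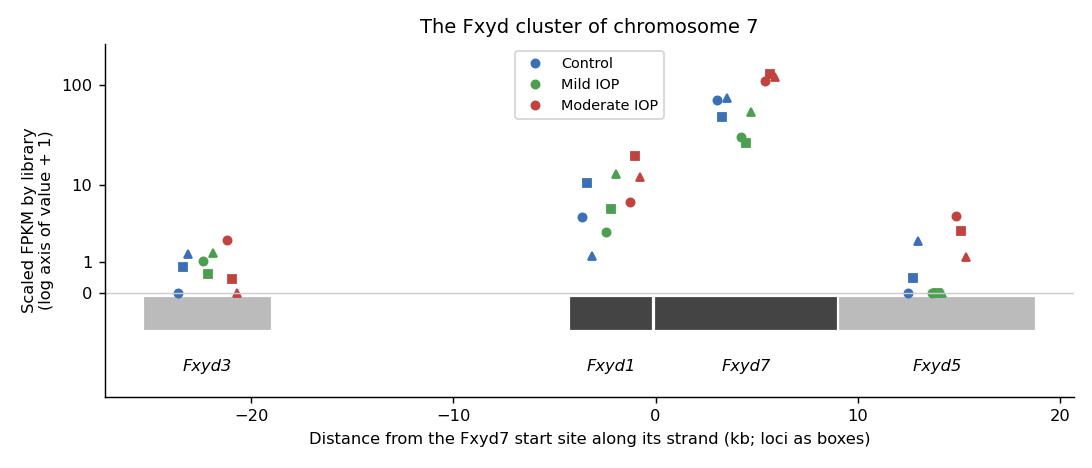
Scaled FPKM by library (log axis of the value + 1, circles, squares and triangles for replicates 1 to 3) above the loci of the chromosome 7 cluster, drawn to scale in kb from the start site of Fxyd7, with members in black. Fxyd7 averaged 73.7 scaled FPKM and its adjoining neighbours Fxyd1 and Fxyd5 averaged 8.45 and 1.24.

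Within 50 kb of the members lay 19 genes, of which 12 were tested. Between Moderate and Mild IOP 1 of the 12, Fxyd5, was called, where 10.2% of all genes were called, so the count was near the background. Fxyd5 passed the filter only through Moderate IOP. None was called between Moderate IOP and Control or between Mild IOP and Control, where 1.84% and 0.399% of all genes were called. Around Atp1b2, Sat2 and Trp53 were higher in Moderate than in Mild IOP by 0.80 (limma FDR = 0.13) and 0.73 (FDR = 0.11) on the log2 scale, short of the threshold, and Fxr2, Efnb3, Wrap53 and Sox15 had an FDR of at least 0.17, as did Nme7 beside Atp1b1, Tfdp2 beside Atp1b3 and Dscaml1, Fxyd2 and Fxyd3. The rest (Hpn, Lgi4, Mir7050, Shbg, Tmprss13, 1700003G13Rik and 4833428L15Rik) were below the filter.

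Transcript length and cell markers are set beside the difference of Fxyd7 as a description. In 10 bins of equal size by transcript length (12330 of the 13043 genes, 94.5%, had a length), the median log2 difference between Moderate and Mild IOP was 0.60 in the shortest bin (98 to 1162 nt), which holds Fxyd7 and Fxyd1, 0.11 in the bin of Fxyd6 and Atp1b3, and −0.05 in the bin of Atp1b1 and Atp1b2. The shortest bin also stood 0.21 higher in Moderate IOP and 0.40 lower in Mild IOP (−0.40) than in Control. Subtracting these medians gives the lower values of Fxyd7 stated above. The library values ran alongside, with the shortest bin at −0.60 and Fxyd7 at −1.22 from their means in Mild IOP replicate 2, −0.29 and −1.05 in Mild IOP replicate 1, −0.13 and −0.24 in Mild IOP replicate 3, and 0.23 to 0.35 and 0.74 to 0.98 in Moderate IOP. Control replicate 2 departed from this, with the shortest bin at 0.13 and Fxyd7 at −0.39. Within Moderate IOP the order did not hold either, since replicate 1 had the highest value of the shortest bin (0.35) and the lowest of Fxyd7 (0.74). The part of transcript length in the difference of Fxyd7 was not tested.

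**Figure D5:**
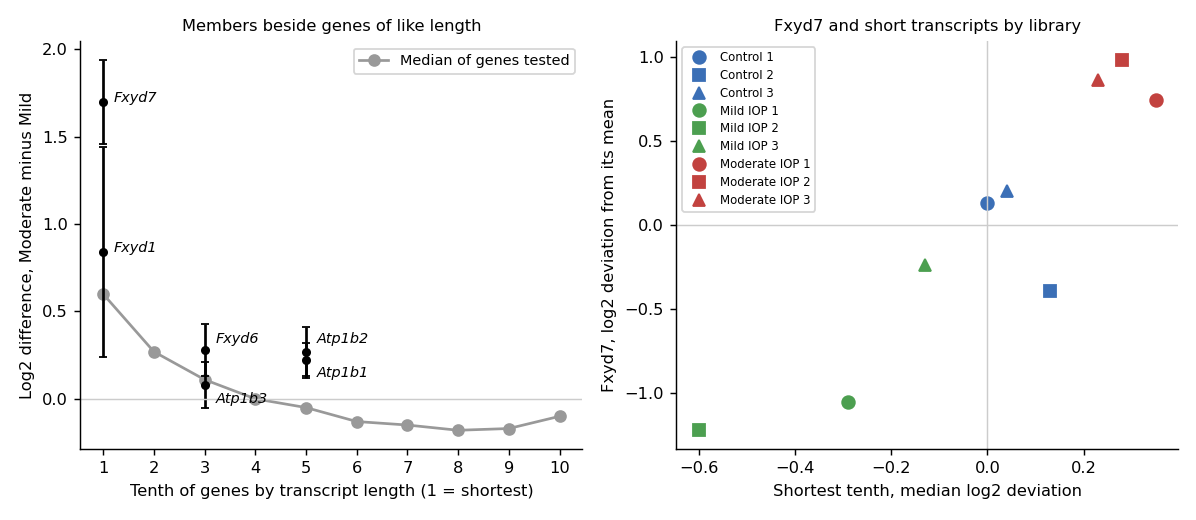
Left, log2 difference between Moderate and Mild IOP of the 6 members (black, with standard errors) and the median of tested genes (grey) against the bin of transcript length, from the shortest to the longest. Right, deviation of Fxyd7 from its mean against the median deviation of the shortest bin in each of the 9 libraries, which was lowest for both in Mild IOP replicate 2 (−0.60 and −1.22).

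Of the 12 RGC markers, 7 were higher in Moderate than in Mild IOP at an FDR below 0.1 and none was lower, where 10.2% of all genes were called. Their median log2 difference was 0.57, against 1.70 for Fxyd7 and 0.22 for Atp1b1. Of the 7 amacrine markers tested 4 were lower and none was higher, with a median of −0.44. Some glial markers also moved. The summed Müller glia markers (7 genes) spanned 114 to 127 scaled FPKM in Control, 107 to 139 under Mild IOP and 166 to 222 under Moderate IOP. Of the 6 tested, 2, Glul and Apoe, were called higher against Mild IOP, and the sums rest mostly on these. Vim also had its highest mean under Moderate IOP (2.05, 2.21 and 5.55 in the 3 groups). Slc1a3 (2.06, 2.94 and 2.11) and Aqp4 (1.67, 1.13 and 1.42) did not, and Rlbp1 (4.46, 12.4 and 14.5) was already higher under Mild IOP. The summed astrocyte markers (4 genes) spanned 1.05 to 4.25, 0.957 to 1.72 and 3.66 to 6.80, with Gfap, Pax2, S100b and Aldh1l1 each at 0 in at least 1 library. The part of cell type content in the levels of Fxyd7, Fxyd1 and Atp1b2 was not tested. Lens markers, at 303 to 367 in Control, did not exceed 5 in the other groups, and rod markers spanned 419 to 511, 279 to 320 and 281 to 318, so that Moderate and Mild IOP were alike in both.

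The genes most like each member were found as those with the smallest root mean square difference in log2(scaled FPKM + 1), each centred on its own mean over the 9 libraries, among the genes at a mean of at least 10. For Fxyd7 these were Rpl27a (0.24), Hist1h2ac (0.27), Lsm7 (0.28), Ndufc2 (0.29) and Cartpt (0.29), where the median over 6041 genes was 0.77. They encode a ribosomal protein, a histone, an RNA-binding protein, a subunit of respiratory complex I and a neuropeptide precursor. Having been picked for the profile of Fxyd7, they share its order of groups, as with Cartpt at 408, 310 and 885 scaled FPKM in Control, Mild IOP and Moderate IOP. For Fxyd6 they were Snrpa (0.06), Degs1 (0.09) and Zpr1 (0.09), with a median of 0.32. For Fxyd1 they were Crym (0.35) and Ifi27 (0.47), with a median of 0.97, both farther from it than the companions listed for the other members. The beta subunits had closer companions, namely Ywhab (0.05), Prkar1a (0.06) and Drg1 (0.06) for Atp1b1, Grin1 (0.07), Gm2a (0.07) and Ubxn6 (0.08) for Atp1b2, and Pgam1, Dbnl and G3bp1 (0.08 each) for Atp1b3, with medians of 0.28, 0.31 and 0.28.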

How the data were processed

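The labels gave each library its group and number. The authors aligned reads to mm10 and estimated FPKM per locus for each library, and this deposited FPKM is the only unit used. The submitters' processing notes name FastQC, Trimmomatic, TopHat2, Cufflinks and Cuffdiff, and the methods name bowtie2 as aligner. FPKM of loci with one symbol were summed, 2 genes with a failed estimate were left out, and each library was divided by a scaling factor (0.9834 to 1.0581). The 13043 genes that reached a mean of 0.5 scaled FPKM were tested with limma 3.58.1 in R 4.3.3 on log2(scaled FPKM + 1), with an empirical Bayes trend over all 9 libraries, Benjamini-Hochberg adjustment over all genes and an FDR of 0.1. A pseudocount understates the change of low genes. Fragments were derived as (2 × FPKM / (upper confidence bound − FPKM)) squared, which is too low for abundant genes, and depth from genes of at least 2000 nt and 100 fragments. Transcript lengths are the longest in GENCODE M21 among transcripts linked to RefSeq, and promoters are from RefSeq. Scripts were tested on simulated data.

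The members, partner genes and markers were chosen with earlier results of these data known. Named are the members, other beta and FXYD genes, partner genes called in a comparison, genes within 50 kb, and the genes nearest in profile, and some genes of this rule are not reported here. Alternatives were the scaling, pseudocount (0.1), filter (none, or a mean of 5), the groups fitted, failed estimates kept, a replicate block and each library left out. The replicate numbers did not pair the libraries. Sequences of Fxyd7 and Atp1b2 promoters were not used here.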

Additional observations from a re-analysis of the deposited data

How the results depend on the processing

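The difference of Fxyd7 between Moderate and Mild IOP was 1.10 after the median of its length bin was subtracted, an alternative chosen after seeing the data, and ranged from 1.51 to 2.00 with one library left out; that of Atp1b1 was 0.14 without a scaling factor. The count of genes called between Moderate and Mild IOP (1324) ranged from 518 (without Mild IOP replicate 2) to 1398 with one library left out. Between Moderate IOP and Control (240) it was 134 with only the 2 groups fitted and 61 (without Control replicate 1) to 285 with one library left out. Between Mild IOP and Control (52) it was 24 without a filter, 85 with a filter at a mean of 5, 11 with only the 2 groups fitted and 15 (without Mild IOP replicate 2) to 175 (without Mild IOP replicate 3) with one library left out. Pump partner genes called ranged from 0 (without Mild IOP replicate 2) to 4 between Moderate and Mild IOP, and from 0 to 1 between Moderate IOP and Control, where the count was also 0 with a pseudocount of 0.1, without a filter and with a filter at a mean of 5. Neighbours called ranged from 0 to 2 between Moderate and Mild IOP and from 0 to 1 (without Control replicate 3) between Moderate IOP and Control, and with a filter at a mean of 5 there were 2 between Moderate and Mild IOP. The causes were not tested.

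With a replicate block, 135 genes were called between Moderate IOP and Control and 25 between Mild IOP and Control, 0 partner genes between Moderate IOP and Control, and 2 neighbours between Moderate and Mild IOP. Libraries of the same number correlated at a mean of 0.012 (−0.005 to 0.044, 9 pairs) and of different numbers at −0.006, so the numbers were not taken as pairs. Among the members, Fxyd1 had the fewest derived fragments (median 9.49), and Fxyd2, Fxyd3, Fxyd4 and Fxyd5 also rested on few.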
